A study of Mus musculus with 18 samples.

Results

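The genes for Norrin, the Wnt ligands, their receptors and their modulators were examined on 18 Illumina mouse whole-genome arrays. Members were chosen by gene symbol: every Wnt, Frizzled (Fzd) and secreted Frizzled-related (Sfrp) gene, Dkk1 to Dkk4, Lrp5, Lrp6, Axin1, Axin2, the Tcf7 family, Lef1, Ctnnb1, Tspan12, Ndp and Sp5. This gave 49 genes of the 19057 with a symbol of their own on the array, covered by 92 probes. A gene with several probes is represented by its brightest one, by mean over all arrays, and other probes are given for the members where their values bear on a result. Of the 49 genes, 13 had a mean above 5 on the log2 scale, a level just over the background of these arrays. A further 4 exceeded 5 in a tumour but in no GNP genotype by its mean, 3 exceeded it on single arrays only, and 29 did not exceed it on any array.

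The arrays held granule neuron progenitors (GNPs), the proliferating cerebellar precursors from which Sonic hedgehog medulloblastoma arises, and medulloblastomas (MBs) of the same lineage. The tumours were 1 NdpKO;Ptch+/- MB and 1 Ptch+/- MB. The GNPs came from NdpKO;Ptch+/-, Ptch+/-, NdpKO and wild-type (WT) mice, with 4 arrays per genotype, and had been purified from cerebella of postnatal day 6 by percoll gradient and pre-plating. The labels give day 6 for the tumours too, whereas the study elsewhere describes MBs of symptomatic older mice. NdpKO is a germline disruption of the X-linked Ndp gene by a lacZ cassette, so that every cell of the animal lacks Norrin and, by the breeding scheme, NdpKO and NdpKO;Ptch+/- mice were males, while the Ptch+/- and WT mice could be of either sex. Ptch+/- mice carry 1 functional allele of Ptch1, the receptor that restrains hedgehog signalling. The labels place WT and Ptch+/- mice on a C57Bl/6 background and NdpKO mice on a mixed one, and give no background for most NdpKO;Ptch+/- arrays, although the study describes controls from the same breeding cohort. Ndp genotype, sex and strain background therefore cannot be told apart here. Nothing in these labels says that the arrays of a genotype were separate litters, and p-values measure the spread between these arrays.

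Norrin is an atypical ligand of the Wnt receptor system. It binds Fzd4 on endothelial cells together with the co-receptors Lrp5 or Lrp6 and Tspan12, stabilises beta-catenin and maintains the blood-brain and blood-retina barriers. The Wnt ligands bind Frizzled receptors, Fzd4 among them, either with Lrp5 and Lrp6 to stabilise beta-catenin, which then acts with Tcf and Lef factors on target genes such as Axin2, Lef1 and Sp5, or without them in planar polarity and axon guidance. Sfrp proteins bind Wnts or Frizzleds outside the cell, Dkk1, Dkk2 and Dkk4 act on Lrp5 and Lrp6, and Dkk3 is a divergent family member that is not an established Lrp inhibitor.

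Sp5 and Axin2 are both direct targets of beta-catenin in other tissues. They are shown because they parted in the tumours, where Sp5 lay at background and Axin2 within or just above its GNP range. The 250 bases before a start site of each gene (RefSeq, GRCm38.p6, plus strand, chr2:70474673-70474922 for Sp5 and chr11:108920099-108920348 for Axin2) are shown with the core Tcf/Lef motif CTTTGA in capitals. It was searched on both strands, the reverse reading TCAAAG.
Sp5: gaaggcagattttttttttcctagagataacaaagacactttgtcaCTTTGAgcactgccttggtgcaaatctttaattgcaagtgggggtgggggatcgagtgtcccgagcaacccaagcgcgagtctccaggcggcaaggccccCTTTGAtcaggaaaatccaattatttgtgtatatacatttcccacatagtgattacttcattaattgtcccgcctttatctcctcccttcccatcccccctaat
Axin2: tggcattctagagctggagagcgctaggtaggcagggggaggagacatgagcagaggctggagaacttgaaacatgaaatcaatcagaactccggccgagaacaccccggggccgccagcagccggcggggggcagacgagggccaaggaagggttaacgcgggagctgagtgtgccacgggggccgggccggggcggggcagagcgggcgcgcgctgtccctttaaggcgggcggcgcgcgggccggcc
The Sp5 window held the motif at positions 47 and 147, and the Axin2 window held none. The Sp5 window ends just before its gene (chr2:70474923-70477726), whereas the Axin2 window lies inside its gene (chr11:108917828-108950783). The 2 windows are therefore not alike in place. Of all 32851 promoter windows of this length, 13.8% held it. Of the 33 members with a window in the table, 6 held it: Sp5, Dkk1, Lef1, Fzd1, Wnt11 and Wnt5b. This counts genes, and Lef1, Wnt11 and Wnt5b have several windows, not all of which held it. The 13.8% counts windows, so the members are not set against it. A match is a run of letters and not a measured binding site.

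A few facts on the arrays bear on every comparison. All 18 arrays had the same median, 4.13, as quantile normalization imposes, and 76.0% of the 45281 probes had a mean at or below 5. Ptch1 was lower on the NdpKO;Ptch+/- (7.80 to 8.23) and Ptch+/- GNP arrays (7.63 to 7.94) than on the NdpKO (8.65 to 8.97) and WT arrays (8.56 to 8.70), with no overlap. In the tumours Ptch1 was 7.01 in the NdpKO;Ptch+/- MB, below every GNP array, and 8.69 in the Ptch+/- MB, within the WT range and above every Ptch+/- GNP array, so that Ptch1 does not check the label of the Ptch+/- MB. NdpKO;Ptch+/- GNP replicate 2 carries the NdpKO genotype in its other labels and was grouped by its title, and its Ptch1 value, 7.80, lay among the Ptch+/- arrays. On the first principal component of the 1500 most variable probes (43.6% of the variance), NdpKO;Ptch+/- replicate 1 lay at -16.6, against 8.41 to 19.7 for the other 3 arrays of its genotype and -17.7 to -12.6 for Ptch+/-. NdpKO replicate 4 lay at 15.2, against -20.0 to -14.5 for the rest of NdpKO and 14.4 to 23.1 for WT. Results that rest on these 2 arrays are given with and without them. As they were picked from these data, leaving them out can narrow the spread by itself, so calls gained that way are not further support. Some granule lineage genes were high in all groups (Zic1 group means 12.73 to 13.10, Barhl1 9.83 to 11.67). The probes for Atoh1, which defines the lineage, and for Pax6, Gli1 and Mycn lay at background everywhere. Endothelial and glial genes were measured in every group, so the values are those of mixed samples, in which fewer cells of a type and less RNA per cell cannot be told apart.

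The Norrin receptor complex was mostly not detected above background. Ndp itself lay between 4.10 and 4.13 on all 18 arrays, WT and NdpKO alike, so its probe could not show the knockout. Fzd4, the Norrin receptor, and Lrp5 stayed at or below 4.14 and Lrp6 at or below 4.30. Tspan12, the tetraspanin that strengthens Norrin signalling through Fzd4, was the 1 component above 5. It was measured at 6.62 in the NdpKO;Ptch+/- MB and 7.29 in the Ptch+/- MB. Among GNPs it was 6.64, 6.57, 6.55 and 6.20 in NdpKO;Ptch+/-, 6.34, 6.14, 6.57 and 6.74 in Ptch+/-, 5.77, 6.39, 5.86 and 6.55 in NdpKO, and 7.27, 6.34, 6.23 and 6.16 in WT. The genotypes overlapped throughout, and the single high value, of WT replicate 1, was on the array with the highest mean over 20 endothelial markers (8.04, against 6.49 to 7.73 on the other GNP arrays). The tumours, with Tspan12 at 6.62 and 7.29, had endothelial means of 5.98 and 6.09, below every GNP array. The part of the endothelial markers in the Tspan12 values was not tested. The limma difference was 0.04 ± 0.25 for NdpKO;Ptch+/- against Ptch+/- (SE; 95% confidence interval -0.50 to 0.58) and -0.36 ± 0.25 for NdpKO against WT (-0.90 to 0.18), and neither passed.

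**Figure D1:**
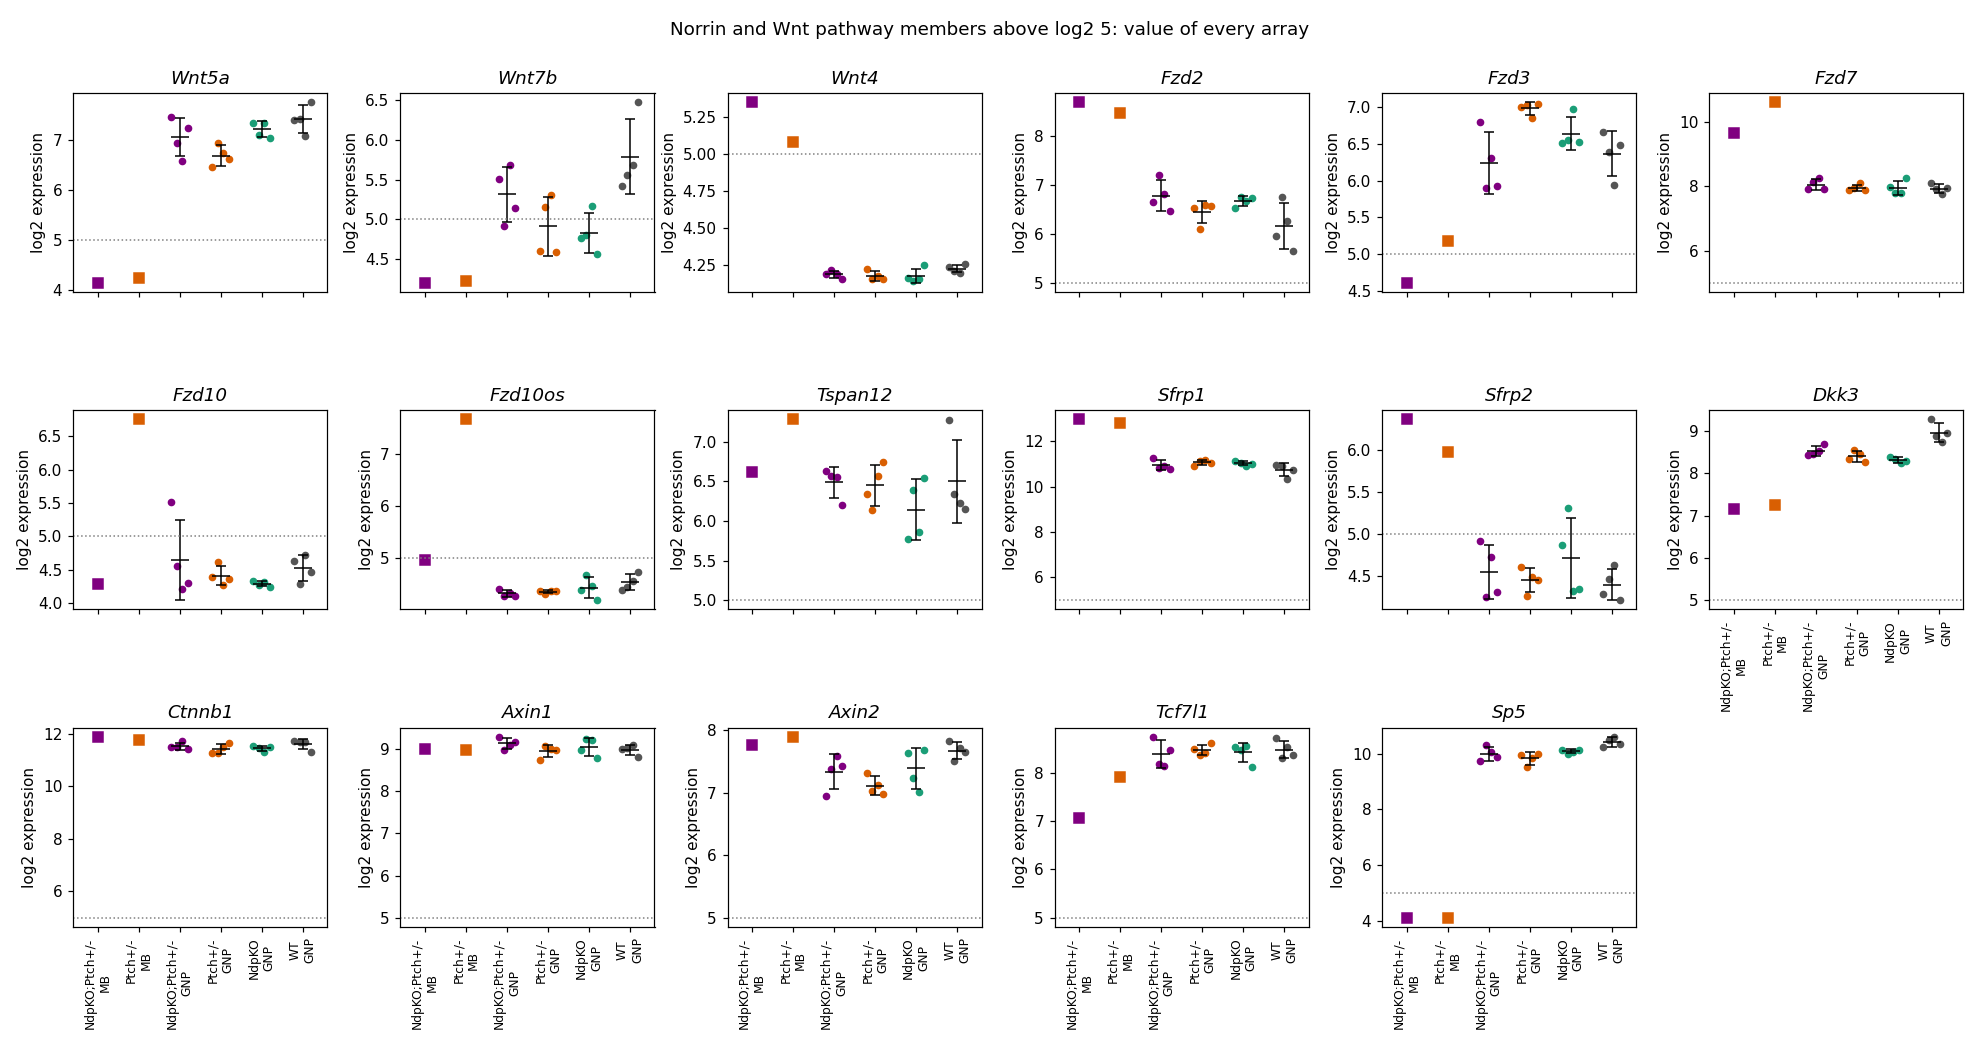
Log2 expression (vertical axis, a scale of its own in each panel) of the 17 members with a mean above 5 over all arrays or in a group. Squares are the single tumours, points the 4 GNP arrays per genotype, black bars the mean ± SD, and the dotted line is log2 5. Sp5 and Wnt5a lie at background in both tumours, while Sfrp1, Fzd2 and Fzd7 lie above every GNP array there.

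The 19 Wnt ligands were almost all at background, with 16 at or below 5 on every array. Wnt5a, which signals mainly without beta-catenin, and Wnt7b, a beta-catenin-dependent ligand of neural cells, were the ligands with a mean above 5, and Wnt4 exceeded 5 in the tumours only. Wnt5a was measured in all 16 GNP arrays. It was 7.47, 6.94, 6.59 and 7.25 in NdpKO;Ptch+/- GNPs, 6.46, 6.94, 6.75 and 6.63 in Ptch+/-, 7.36, 7.11, 7.35 and 7.05 in NdpKO, and 7.41, 7.43, 7.09 and 7.77 in WT. All 4 Ptch+/- arrays lay below all 4 WT arrays. Wnt7b was near background, at 5.51, 4.92, 5.69 and 5.15 in NdpKO;Ptch+/-, 4.60, 5.15, 5.31 and 4.59 in Ptch+/-, 4.77, 4.80, 5.16 and 4.57 in NdpKO, and 5.43, 5.56, 5.68 and 6.48 in WT. The WT arrays exceeded every Ptch+/- and every NdpKO array, and NdpKO;Ptch+/- overlapped all 3 other genotypes.

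Of the 10 Frizzled receptors, Fzd2, Fzd3 and Fzd7 had a mean above 5 and Fzd10 exceeded it in the Ptch+/- MB. Fzd5 and Fzd6 passed 5 on single arrays only, with group means of at most 4.85 and 4.74. Fzd7, a receptor for beta-catenin-dependent Wnts, was at nearly the same level in the GNP genotypes, at 8.05 ± 0.17 in NdpKO;Ptch+/-, 7.95 ± 0.09 in Ptch+/-, 7.94 ± 0.23 in NdpKO and 7.92 ± 0.14 in WT (SD, n = 4 each). Fzd2, a receptor of both branches, was 6.66, 7.21, 6.81 and 6.47 in NdpKO;Ptch+/-, 6.54, 6.10, 6.59 and 6.57 in Ptch+/-, 6.53, 6.76, 6.68 and 6.73 in NdpKO, and 5.96, 6.76, 6.27 and 5.66 in WT. The Fzd2 groups overlapped, with WT holding the 2 lowest and also 1 of the higher values. Fzd3, which acts with planar polarity genes in axon guidance, was 6.80, 5.90, 6.30 and 5.93 in NdpKO;Ptch+/-, 7.01, 7.03, 6.85 and 7.05 in Ptch+/-, 6.51, 6.56, 6.97 and 6.53 in NdpKO, and 6.66, 6.38, 5.94 and 6.48 in WT. Ptch+/- was the highest genotype and its range did not overlap that of NdpKO;Ptch+/- or WT. Fzd10os, a transcript from the opposite strand next to Fzd10, exceeded 5 in the Ptch+/- MB alone, and Fzd10 there and on NdpKO;Ptch+/- GNP replicate 1 (5.52).

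Among the secreted modulators, Sfrp1 and Dkk3 were high and Sfrp2 was above 5 in the tumours and in NdpKO replicate 2. Dkk1, Dkk2, Dkk4, Sfrp4 and Sfrp5 were at background. Sfrp1 averaged 10.95 ± 0.22 in NdpKO;Ptch+/- GNPs, 11.06 ± 0.12 in Ptch+/-, 11.02 ± 0.09 in NdpKO and 10.74 ± 0.29 in WT. Its second probe, with a mean of 9.24, was 8.76 to 9.43, 8.91 to 9.37, 8.90 to 9.34 and 8.39 to 8.79 in the same order, with WT below every Ptch+/- and NdpKO array. At this probe Ptch+/- differed from WT by 0.53 ± 0.15 (limma adjusted p = 0.118) and NdpKO by 0.54 ± 0.15 (0.175), and neither passed. Dkk3 was 8.44, 8.46, 8.52 and 8.68 in NdpKO;Ptch+/-, 8.34, 8.55, 8.45 and 8.26 in Ptch+/-, 8.39, 8.33, 8.23 and 8.30 in NdpKO, and 9.27, 8.87, 8.74 and 8.96 in WT. Every WT array lay above all 12 mutant arrays, and NdpKO;Ptch+/- lay above NdpKO with no overlap.

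Within the cell, Ctnnb1 (beta-catenin) and the scaffolds Axin1 and Axin2 of its destruction complex were all above 5. Ctnnb1 averaged 11.53 ± 0.14 in NdpKO;Ptch+/-, 11.42 ± 0.18 in Ptch+/-, 11.44 ± 0.09 in NdpKO and 11.60 ± 0.19 in WT, and Axin1 lay between 8.75 and 9.30 on all 18 arrays. Axin2, the most widely used readout of beta-catenin activity, was 6.94, 7.38, 7.59 and 7.42 in NdpKO;Ptch+/-, 7.32, 7.02, 7.12 and 6.97 in Ptch+/-, 7.63, 7.23, 7.00 and 7.68 in NdpKO, and 7.82, 7.50, 7.72 and 7.64 in WT. Its Ptch+/- arrays lay below all WT arrays. Of the nuclear factors, the repressor Tcf7l1 averaged 8.39 ± 0.29, 8.48 ± 0.11, 8.43 ± 0.20 and 8.49 ± 0.18 in the same order of genotypes. Sp5, a transcription factor and beta-catenin target, was 9.74, 10.31, 10.07 and 9.87 in NdpKO;Ptch+/-, 9.95, 9.51, 9.85 and 9.99 in Ptch+/-, 10.13, 9.99, 10.06 and 10.14 in NdpKO, and 10.24, 10.49, 10.61 and 10.33 in WT. WT was highest, without overlap with Ptch+/- or NdpKO. Tcf7l2 passed 5 on 2 arrays only, and Lef1, a target as well as a partner of beta-catenin, stayed at or below 4.16.

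The remaining members at or below 5 on every array were Wnt1, Wnt2, Wnt2b, Wnt3, Wnt3a, Wnt5b, Wnt6, Wnt7a, Wnt8a, Wnt8b, Wnt9a, Wnt9b, Wnt10a, Wnt10b, Wnt11, Wnt16, Fzd1, Fzd8 and Fzd9. With Ndp, Fzd4, Lrp5, Lrp6, Lef1 and the 5 undetected Dkk and Sfrp genes, these 29 spanned 4.09 to 4.30. A probe at this level gives only a bound and does not show that the transcript was absent.

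Loss of Norrin on the Ptch+/- background was tested by NdpKO;Ptch+/- against Ptch+/- GNPs. No member passed an adjusted p of 0.05 (limma, Benjamini-Hochberg over all probes), where 0.0155% of all probes passed. An unadjusted p below 0.05 was found for 2 members, and the share of all probes at that threshold was not counted. The median difference of the 13 members above 5 was 0.13, beside -0.02 over all probes above 5. The lowest p belonged to Fzd3, with a log2 difference of -0.75 ± 0.20 (1.68-fold, 95% confidence interval -1.18 to -0.32, limma adjusted p = 0.297). Its value depended on NdpKO;Ptch+/- replicate 1, which at 6.80 was the highest of its genotype. With that array and NdpKO replicate 4 left out, the difference was -0.94 and passed (limma adjusted p = 0.0196). Its second probe gave -0.53 (limma adjusted p = 0.614). Sp5 (0.17, interval -0.11 to 0.45), Axin2 (0.22, -0.13 to 0.58) and Dkk3 (0.13, -0.09 to 0.34) did not pass. Their intervals include 0 and, for Axin2, differences of up to 0.58.

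**Figure D2:**
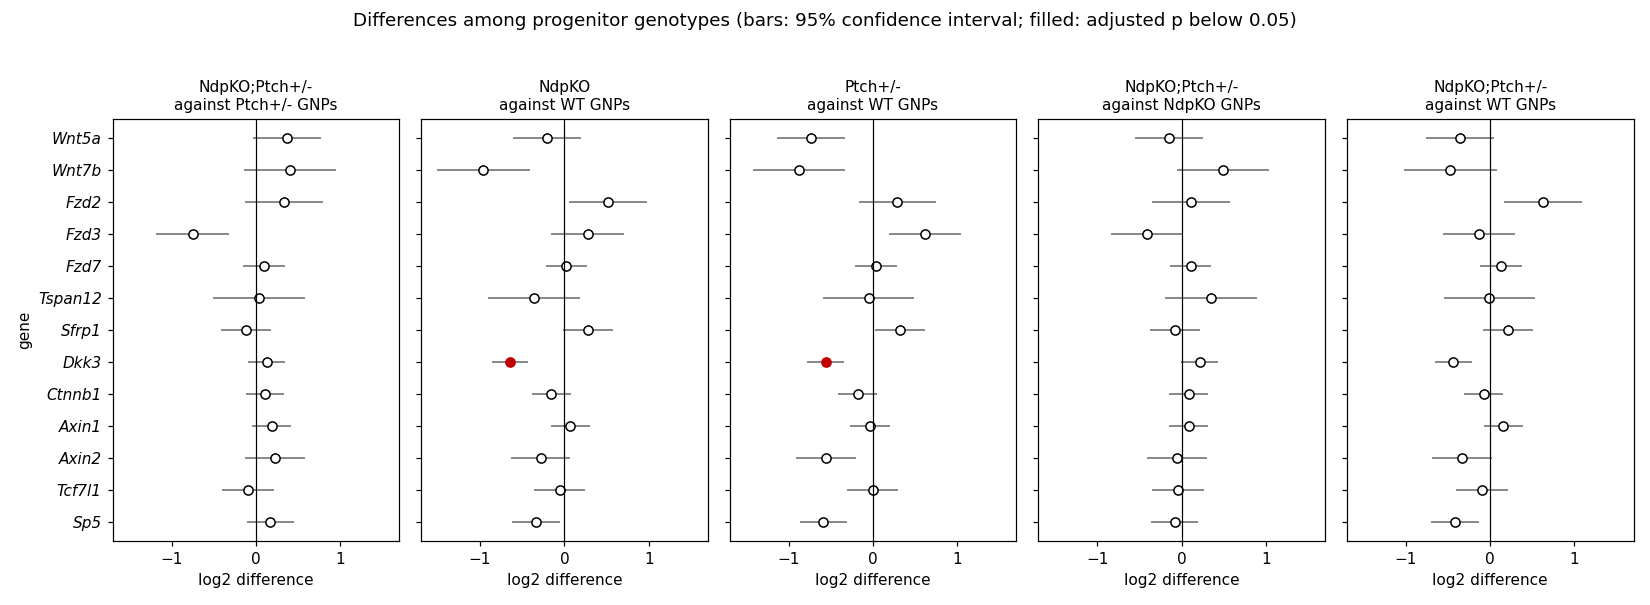
Log2 difference between GNP genotypes (horizontal axis) for the 13 members with a mean above 5 (rows), 1 panel per comparison, from the limma fit to 16 arrays. Points are differences, bars 95% confidence intervals and filled points an adjusted p below 0.05. The single gene filled is Dkk3, at -0.65 in NdpKO and -0.56 in Ptch+/- GNPs, each against WT.

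Loss of Norrin on its own was tested by NdpKO against WT GNPs. Dkk3 was the 1 member of 49 to pass, lower in NdpKO by 0.65 ± 0.10 (1.57-fold, difference -0.65, 95% confidence interval -0.86 to -0.43, limma adjusted p = 0.0229, lower in 4 of 4 arrays). All probes passed at a rate of 0.307%, and probes with a mean above 5 at 1.04%. Wnt7b (-0.96 ± 0.25), Sp5 (-0.34 ± 0.13) and Fzd2 (0.52 ± 0.21) had an unadjusted p below 0.05 and limma adjusted p-values of 0.152, 0.348 and 0.391. As NdpKO Wnt7b averaged below 5, its fold was at least 1.73-fold lower. The second Dkk3 probe was 7.44, 7.84, 7.50 and 7.38 in NdpKO, against 8.27, 8.01, 7.93 and 7.55 in WT, where 1 NdpKO array overlapped WT (-0.40, limma adjusted p = 0.384). The call at the brightest probe was lost when NdpKO replicate 1, 2 or 3 was left out (limma adjusted p = 0.0737, 0.0524 and 0.0802), with the block on replicate number (0.0686) and with only these 8 arrays in the fit (0.230). It stayed when the 2 arrays that stand apart were left out (-0.64, limma adjusted p = 0.0182).

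Loss of 1 Ptch1 allele was tested by Ptch+/- against WT GNPs. Again Dkk3 alone passed, lower in Ptch+/- by 0.56 ± 0.10 (1.48-fold, difference -0.56, 95% confidence interval -0.78 to -0.35, limma adjusted p = 0.0240, lower in 4 of 4 arrays), where 1.09% of all probes and 3.59% of those with a mean above 5 passed. A further 5 members had no overlap between the groups and a mean above 5, and missed the threshold. The share of all probes without overlap was not counted, so this number is not read as a result about the members. The differences were negative for Sp5 (-0.59 ± 0.13, limma adjusted p = 0.0510), Wnt5a (-0.73 ± 0.19, 0.0838), Wnt7b (-0.88 ± 0.25, 0.126, at least 1.73-fold) and Axin2 (-0.56 ± 0.16, 0.128), and positive for Fzd3 (0.62 ± 0.20, 0.170). Fzd10os also did not overlap, with every value below 5. The second Dkk3 probe was 7.27, 7.47, 7.21 and 7.75 in Ptch+/-, against 8.27, 8.01, 7.93 and 7.55 in WT, where Ptch+/- replicate 4 overlapped WT (-0.51 ± 0.16, limma adjusted p = 0.164). The call at the brightest Dkk3 probe was lost without Ptch+/- replicate 1, 3 or 4 (limma adjusted p = 0.0730, 0.0558 and 0.0608), with the block (0.0566) and with only these 8 arrays in the fit (0.0971). Without the 2 arrays that stand apart, which are in neither group but enter the estimate of the spread, Sp5, Wnt5a and Axin2 passed as well (limma adjusted p = 0.0306, 0.0456 and 0.0428). Those arrays were picked for lying apart in these data. Leaving them out can lower p by itself, so these calls are not further support. The NdpKO and Ptch+/- differences share the WT arrays.

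In the double mutant no member passed against either single reference. Against WT, NdpKO;Ptch+/- Dkk3 differed by -0.44 ± 0.10 (limma adjusted p = 0.217) and Sp5 by -0.42 ± 0.13 (0.459), and 0.0508% of all probes passed. Against NdpKO, where 0.00442% of all probes passed, Dkk3 differed by 0.21 ± 0.10 (limma adjusted p = 0.873). Over the members, 4 had an unadjusted p below 0.05 in the first comparison and 1 in the second. The shares of all probes at that unadjusted threshold were not counted. The interaction asks whether the difference with loss of Norrin was another one on the Ptch+/- background than on the WT background. It passed for Dkk3 (0.77 ± 0.14, limma adjusted p = 0.0423), whose difference with loss of Norrin was 0.13 on the Ptch+/- background and -0.65 on the WT one. Of all probes 0.495% passed. Dkk3 kept this call in 4 of the 16 fits that left out 1 array each. With both arrays that stand apart left out it was 0.80 (limma adjusted p = 0.0159), and Fzd3 passed as well (-1.25, 0.0129, against -1.02 and 0.117 with all arrays). It was lost when NdpKO;Ptch+/- replicate 2 was counted as NdpKO (0.108) and with the block (0.0751), and the second Dkk3 probe did not pass (0.56 ± 0.23, limma adjusted p = 0.303). The F test of any difference among the 4 genotypes passed for Dkk3 only (limma adjusted p = 0.0494), as for 0.221% of all probes, and this call was kept in 3 of the 16 fits that left out 1 array each.

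Marker genes of other cell types differed between the genotypes as well. The glial and endothelial lists and Ttr were, like Dkk3, highest in WT by their mean, whereas the granule neuron list was lowest in WT. The mean over 13 astrocyte and Bergmann glia genes was 8.28 to 8.65 on NdpKO;Ptch+/- arrays, 7.94 to 8.30 on Ptch+/-, 7.61 to 8.57 on NdpKO and 8.68 to 9.13 on WT, and 11 of the 13 had a mean above 5. In NdpKO against WT the median difference of the list was -0.685 with 1 gene passing, and in Ptch+/- against WT -0.756 with 1 passing. In the interaction its median was 1.13 with 1 passing. The mean over 20 endothelial genes was 6.65 to 7.73, 6.56 to 7.12, 6.49 to 7.38 and 7.14 to 8.04 in the same order, with no gene of the list passing in these comparisons. The choroid plexus gene Ttr averaged 9.56, 7.99, 8.67 and 12.13. Over the 4 choroid plexus genes on the array, the mean was 6.46 to 7.92, 6.43 to 7.54, 6.20 to 7.62 and 6.91 to 9.15. WT therefore overlapped the other genotypes by this list. Its gene Otx2 averaged 10.04, 10.14, 10.10 and 10.22. The mean over 8 granule neuron genes was 7.77 to 8.05, 8.06 to 8.18, 7.87 to 8.27 and 7.62 to 7.74, with 1 gene higher in NdpKO against WT, 3 higher in Ptch+/- against WT and 2 lower in the interaction. Of 10 granule progenitor genes 2 were higher in Ptch+/- against WT and 2 lower in the interaction. The Purkinje and interneuron list did not single out WT, with a mean of 6.32 in NdpKO;Ptch+/- and 6.29 in WT. Of all probes, 0.307% passed in NdpKO against WT, 1.09% in Ptch+/- against WT and 0.495% in the interaction. The lists are short, and their counts are not read as raised rates. The part of these marker differences in the results for Dkk3, Sp5, Wnt5a and Wnt7b was not tested.

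**Figure D3:**
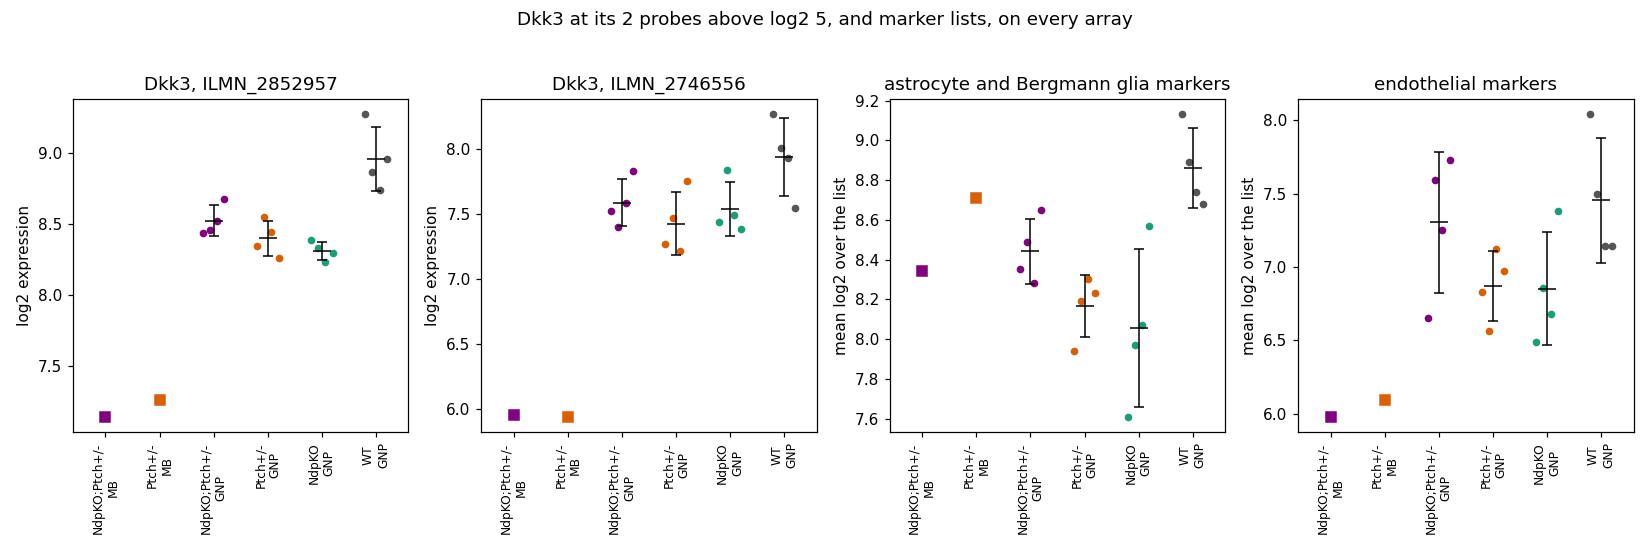
Dkk3 at the 2 of its 3 probes that exceeded log2 5 (first 2 panels, log2 expression) and the mean log2 expression of the glial and endothelial marker lists (last 2 panels), by group. Squares are single tumours, points the 4 GNP arrays and black bars the mean ± SD. WT is the highest GNP genotype in each panel by its mean, and the tumours have the lowest Dkk3 values (7.14 and 7.26 at the first probe).

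Probes of 1 gene did not always give the same result. Ctnnb1 had 4 probes, of which the 2 brightest did not pass in any GNP comparison. A dimmer Ctnnb1 probe, with a mean of 6.67, was 6.65 to 6.90 in NdpKO;Ptch+/-, 5.48 to 6.41 in Ptch+/-, 6.17 to 6.80 in NdpKO and 6.89 to 7.02 in WT. At this probe Ptch+/- was lower than WT by 0.88 ± 0.17 (limma adjusted p = 0.0345) and the interaction was 1.24 (0.0495), against -0.18 ± 0.11 (0.530) for Ptch+/- against WT at the brightest probe. In MB against GNPs this probe was higher by 1.00 ± 0.23 (0.0245), and the brightest by 0.36 ± 0.11 (0.0760). The dimmest Ctnnb1 probe, with a mean of 4.81, was 5.20, 4.84, 5.76 and 5.62 in Ptch+/-, against 4.70, 4.28, 5.07 and 4.27 in WT, the opposite direction (0.77 ± 0.24, limma adjusted p = 0.163). In MB against GNPs it differed by -0.44 ± 0.34 (0.516). Which transcript each probe reads was not examined.

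The tumours were set against the 8 GNP arrays of their genotypes, with Ndp genotype in the model. With 1 tumour per genotype, the spread in this fit came mostly from the GNP arrays. Its p-values therefore say little about variation between tumours. Of the 49 members 11 passed, which is 22.4%, against 14.7% of all probes. Among members with a mean above 5 it was 8 of 13, against 37.9% of such probes. The tumours were higher for 6 members (8.61% of all probes passed as higher) and lower for 5 (6.06% passed as lower). Of the members, 14 were above 5 in at least 1 tumour. The median difference of the 13 members above 5 was -0.06, beside -0.10 over all probes above 5.

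The receptors Fzd2 and Fzd7, the modulators Sfrp1 and Sfrp2, the ligand Wnt4 and Fzd10os were higher in MB. Fzd7 was 9.64 in the NdpKO;Ptch+/- MB and 10.62 in the Ptch+/- MB, against 7.74 to 8.25 on the 16 GNP arrays with a median of 7.93 (difference 2.13 ± 0.22, 4.37-fold, limma adjusted p = 4.17e-04). Fzd2 was 8.70 and 8.48, against 5.66 to 7.21 (median 6.58, difference 1.97 ± 0.19, 3.92-fold, limma adjusted p = 3.54e-04). Both receptors exceeded every GNP array in both tumours. Sfrp1 was 12.96 and 12.79, against 10.33 to 11.27 (median 10.94, difference 1.87 ± 0.14, 3.67-fold, limma adjusted p = 6.60e-05), and its second probe gave 2.39. Sfrp2 was 6.36 and 5.98, against 4.21 to 5.31 (median 4.46, difference 1.67 ± 0.18, at least 2.25-fold). Sfrp2 exceeded every GNP array in both tumours, as did Sfrp1. Wnt4 was 5.36 and 5.08, against 4.14 to 4.26 (median 4.19, difference 1.04 ± 0.05, at least 1.16-fold), just over background in the tumours. Fzd10os was 4.97 in the NdpKO;Ptch+/- MB and 7.66 in the Ptch+/- MB, against 4.20 to 4.75 (median 4.39, difference 1.97 ± 0.48, at least 2.49-fold, limma adjusted p = 0.0310), so that its size rested on 1 tumour. Without the Ptch+/- MB every remaining value lies below 5 and no difference is given. Without 1 of 6 GNP arrays its limma adjusted p lay above 0.05, up to 0.0600.

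Sp5, Wnt5a, Fzd3, Dkk3 and Tcf7l1 were lower in MB. Sp5 was 4.12 in both tumours, at background, against 9.51 to 10.61 on the 16 GNP arrays with a median of 10.07, at least 30.1-fold lower (difference -5.80 ± 0.17, limma adjusted p = 2.87e-07). It has 1 probe on the array. Wnt5a was 4.15 and 4.25, also at background, against 6.46 to 7.77 with a median of 7.10, at least 3.68-fold lower (-2.68 ± 0.23, limma adjusted p = 1.73e-04). For neither gene did a GNP array overlap the tumours. Fzd3 was 4.61 and 5.18, against 5.90 to 7.05 (median 6.54, difference -1.72 ± 0.22, at least 3.05-fold lower). Of its other probes, 1 gave -1.11 and the dimmest, with a mean of 4.64, gave 1.04 in the opposite direction, both passing (limma adjusted p = 0.0246 and 0.0170). Dkk3 was 7.14 and 7.26, against 8.23 to 9.27 (median 8.45, difference -1.26 ± 0.09, 2.40-fold lower), with -1.56 at its second probe. The glial marker mean was 8.34 in the NdpKO;Ptch+/- MB and 8.71 in the Ptch+/- MB, against 7.94 to 8.65 on the 8 GNP arrays. Of its 13 genes 5 passed as higher and 3 as lower, beside 8.61% and 6.06% of all probes. The Bergmann glia genes Gdf10 (6.58 and 7.27, against GNP means of 10.21 in NdpKO;Ptch+/- and 9.56 in Ptch+/-) and Gja1 (8.78 and 9.34, against 11.03 and 10.97) and the astrocyte gene Aldh1l1 (4.21 and 4.37, against 6.32 and 5.25) had lower values in both tumours. Others of the list had higher values in both tumours. These included Gfap (10.28 and 9.91, against 7.90 and 8.61), Apoe (10.47 and 11.35, against 8.59 and 8.35) and Slc1a3 (12.74 and 14.00, against 12.63 and 12.14). The part of these glial genes in the Dkk3 difference was not tested. Tcf7l1 was 7.06 and 7.92, against 8.14 to 8.76 (median 8.48, difference -0.95 ± 0.21, limma adjusted p = 0.0190), and did not pass without the NdpKO;Ptch+/- MB (-0.56, 0.215).

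Axin2 was 7.76 and 7.89 in the tumours, against 6.94 to 7.82 on the GNP arrays, a difference of 0.60 ± 0.17 that missed the threshold (limma adjusted p = 0.0528) and passed without NdpKO;Ptch+/- replicate 1, which stands apart (0.55, 0.0407). Wnt7b lay at background in both tumours, 4.20 and 4.23, below every GNP array (-0.90 ± 0.26, limma adjusted p = 0.0615). Ctnnb1 differed by 0.36 ± 0.11 (0.0760), Tspan12 by 0.48 ± 0.21 (0.193) and Axin1 by -0.06 ± 0.10 (0.786).

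**Figure D4:**
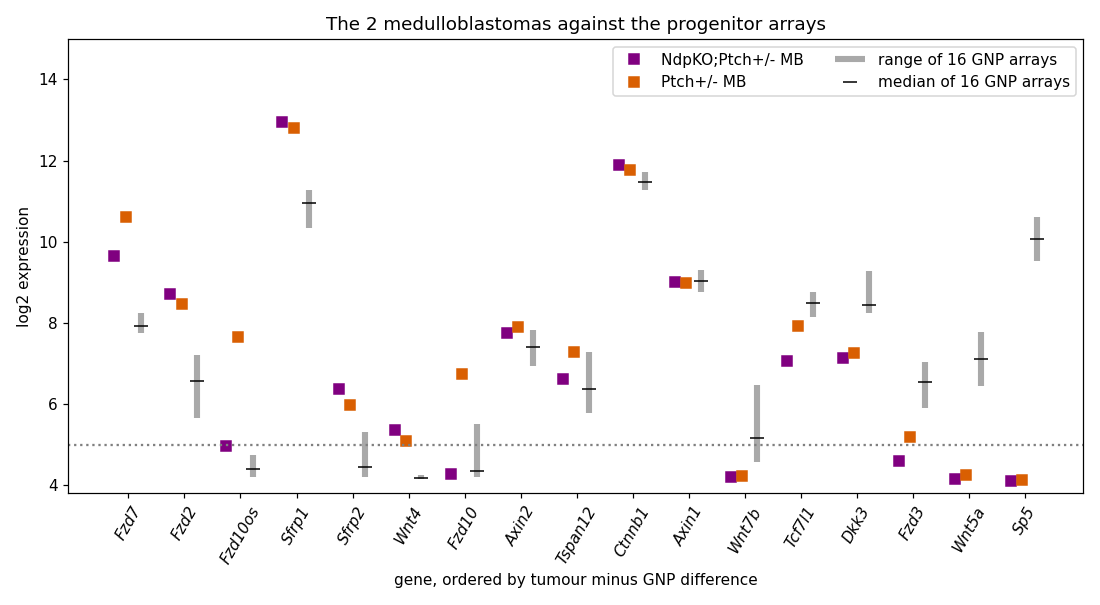
Log2 expression (vertical axis) of 17 members in the NdpKO;Ptch+/- MB and the Ptch+/- MB (squares), beside the range (grey bar) and median (black tick) of the 16 GNP arrays. Genes run by the difference of the tumours from the GNPs of their genotypes, and the dotted line is log2 5. The tumours lie close together except for Fzd10, Fzd10os, Fzd7, Tcf7l1, Tspan12 and Fzd3.

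Other cell types differed between these tissues as well. The mean over 9 microglial genes was 7.57 in the NdpKO;Ptch+/- MB and 8.10 in the Ptch+/- MB, against 4.98 to 5.44 on the 8 GNP arrays, and 8 of the 9 genes were higher. The mean over 20 endothelial genes was 5.98 and 6.09, against 6.56 to 7.73. Of the 20, 7 passed as lower and none as higher. Pecam1 lay at background in both tumours (4.18 and 4.17). Sox18 had higher values there (10.63 and 11.87, against GNP means of 9.45 in NdpKO;Ptch+/- and 7.60 in Ptch+/-). Emcn was 7.71 and 4.29, against 9.10 and 7.65. The mean over 8 granule neuron genes was 7.13 and 6.31, against 7.77 to 8.18, with 3 of the 8 lower, and over 8 Purkinje and interneuron genes 4.82 and 4.92, against 5.61 to 6.69, with 2 of the 8 lower. Granule progenitor genes averaged 8.05 and 7.95, against 7.79 to 8.06. In this comparison 8.61% of all probes passed as higher and 6.06% as lower. The part of these cell types in the member differences was not tested. Purification is described for the GNPs only, and tissue, preparation and age cannot be told apart here.

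Between the tumours there was 1 array each and no test. Of the 49 members 2 differed by over 1 on the log2 scale, as 3.52% of all probes did, both lower in the NdpKO;Ptch+/- MB. Fzd10 was 4.28 in the NdpKO;Ptch+/- MB and 6.75 in the Ptch+/- MB (difference -2.47, at least 3.37-fold lower), and Fzd10os 4.97 and 7.66 (-2.68, at least 6.31-fold lower). They are neighbours on chromosome 5 (GRCm38.p6), Fzd10 at chr5:128601106-128604093 and Fzd10os at chr5:128579130-128600687. The other probes of each gene lay at background in all groups, with means of 4.12 to 4.17. Next came Fzd7 (-0.98), Tcf7l1 (-0.86), Tspan12 (-0.66) and Fzd3 (-0.57), all lower in the NdpKO;Ptch+/- MB, while Sfrp2 was 0.38 higher there.

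Of 70 other Wnt pathway genes, 67 were on the array and 31 had a mean above 5. None passed in NdpKO;Ptch+/- against Ptch+/- or against NdpKO. In NdpKO against WT, 3 passed: Tpbg, a membrane protein that can inhibit Wnt signalling, was higher (0.53 ± 0.09), and Apcdd1, a membrane-bound inhibitor that is itself a beta-catenin target, and Cd44, a Wnt target, were lower (-1.13 ± 0.17 and -1.31 ± 0.10). These 3 are 4.48% of the 67, where 0.307% of all probes and 1.04% of those with a mean above 5 passed. In Ptch+/- against WT, 2 passed, the co-repressor Ctbp2 as higher (0.79 ± 0.14) and Cd44 as lower (-1.33 ± 0.10). These 2 are 2.99% of the 67, where 1.09% of all probes and 3.59% of those with a mean above 5 passed. Cd44 was also the 1 gene lower in NdpKO;Ptch+/- against WT (-1.12 ± 0.10), and its mean over the 8 arrays of the Ptch+/- genotypes was 4.53. As Cd44 lay near background in the mutant GNPs, these differences are limited by it and its call in the interaction was not read. The interaction also passed for Porcn, the acyltransferase of Wnt secretion (-0.63 ± 0.12). In all, 2.99% of the 67 passed in the interaction, beside 0.495% of all probes. In NdpKO;Ptch+/- against WT the share was 1.49%, beside 0.0508% of all probes. In MB against GNPs, 17 of the 67 passed, 12 higher and 5 lower, which is 25.4%. The rate was 14.7% over all probes and 37.9% over probes with a mean above 5. As 31 of the 67 were above 5, while 76.0% of all probes were not, the list was brighter than the array. The 25.4% and the shares in the GNP comparisons are therefore not read as raised rates. The planar polarity cadherins Celsr2 (1.80 ± 0.08) and Celsr3 (1.59 ± 0.06), the Groucho co-repressors Tle1 (1.15 ± 0.15) and Tle2 (1.90 ± 0.27), the secreted inhibitor Draxin (1.06 ± 0.13) and Apc (1.22 ± 0.17), the scaffold of the destruction complex, were higher, as was Cd44 (0.86 ± 0.20). The planar polarity gene Prickle2 (-3.12 ± 0.22), Ctbp2 (-1.96 ± 0.15), the kinase Csnk1d (-1.55 ± 0.09), Pygo1 (-1.08 ± 0.25) and Porcn (-0.90 ± 0.18) were lower.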

How the data were processed

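Total RNA was measured on 18 Illumina MouseWG-6 v2.0 BeadChips. The deposited values are log2 intensities that the authors background-corrected and quantile-normalized with the neqc function of limma, and no further transformation was applied here. The number of arrays, not a count depth, limits the precision. Their filter on probe quality was not applied. The table held 45281 probes, and 34885 of them had 1 symbol, 18 several and 10378 none. All 49 members were matched by Entrez identifier to a RefSeq table (GRCm38.p6).

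The p-values come from limma 3.58.1 under R 4.3.3 at default settings, with 1 mean per genotype over the 16 GNP arrays, or tissue plus Ndp genotype over the 2 tumours and 8 GNP arrays of their genotypes. Tests were two-sided and adjusted by Benjamini-Hochberg over all probes, and a member was called below 0.05. Where 1 group lay at or below 5, the fold was taken against 5 and given as "at least". The procedure was tested on simulated data.

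Samples were grouped by title. The members and lists were chosen with earlier results of these data known. Ndp, its receptor complex, Ctnnb1, Lef1 and Axin2 were named whatever their values, then every member above 5 overall or in a group, with each array where a member was called, did not overlap or was among the 5 largest differences. Replicate numbers did not pair the arrays: the 24 same-numbered pairs had a median correlation of -0.0478 after removal of group means (-0.348 to 0.477). Alternatives were another probe, the choice of brightest probe, a filter on dim probes, a robust fit with a trend, array weights, cyclic loess, the disputed label, the block, other arrays in the fit and left-out arrays.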

Additional observations from a re-analysis of the deposited data

Results flagged for a closer look

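In the 80 groups of 4 arrays examined for 20 members, 10 arrays stood apart from the other 3 of their genotype, where chance flags about 1 in 20 groups, here 4. Those in NdpKO;Ptch+/- GNPs were Fzd5 in replicate 2 (5.38, others 4.64 to 4.72), Fzd6 in replicate 4 (6.02, others 4.20 to 4.43) and Tcf7l2 in replicate 3 (4.89, others 4.36 to 4.41). In Ptch+/- replicate 2 they were Fzd2 (6.10, others 6.54 to 6.59), Fzd5 (4.35, others 4.60) and Fzd10os (4.32, others 4.38 to 4.39). In NdpKO they were Fzd3 in replicate 3 (6.97, others 6.51 to 6.56) and Tcf7l2 in replicate 2 (5.63, others 4.50 to 4.57). In WT they were Tspan12 in replicate 1 (7.27, others 6.16 to 6.34) and Ctnnb1 in replicate 4 (11.31, others 11.69 to 11.71).

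The interaction of Dkk3, the difference with loss of Norrin on the Ptch+/- background minus that on the WT background, was 0.77 (limma adjusted p = 0.0423). It passed in 4 of the 16 fits that left out 1 array each (limma adjusted p up to 0.0958), and did not pass with the block on replicate number (0.0751), with NdpKO;Ptch+/- replicate 2 counted as NdpKO (0.108) or at the second probe (0.303).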

How the results depend on the processing

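Over the single-member differences, 627 results under an alternative kept their direction and their side of the threshold, 36 came to pass, 42 ceased to pass and 4 changed sign. The sign changes came with the second-brightest probe, at background: Wnt5a in Ptch+/- against WT (0.0027) and in the interaction (-0.014), Fzd10os in NdpKO;Ptch+/- against WT (0.0024) and Tcf7l1 in MB against GNPs (0.0025). Dimmer probes are not in this count, and those of Fzd3 in MB against GNPs (1.04) and Ctnnb1 in Ptch+/- against WT (0.77) also opposed the brightest in sign. Only 24 members have a second probe, and with it 0 members passed in NdpKO against WT, in Ptch+/- against WT, in the interaction and in the F test, and 4 in MB against GNPs. With adjustment over probes of a mean of at least 5, 2 passed in NdpKO against WT (Dkk3 and Wnt7b), 5 in Ptch+/- against WT and 3 in the interaction. With only the arrays of the groups compared, 0 passed in NdpKO against WT. In Ptch+/- against WT, 3 passed in the robust fit with a trend and 3 with array weights (Dkk3, Sp5 and Wnt5a), and 2 with cyclic loess (Dkk3 and Sp5). With NdpKO;Ptch+/- replicate 2 counted as NdpKO, 2 passed in Ptch+/- against WT, and 0 in the interaction and the F test, which also had 0 with cyclic loess. Without both arrays that stand apart, 1 passed in NdpKO;Ptch+/- against Ptch+/- (Fzd3), 4 in Ptch+/- against WT, and 2 in the interaction and in the F test (Dkk3 and Fzd3). At a threshold of 0.5, 6 members differed between the tumours. The shares of all probes passing under an alternative, here and with the block or left-out arrays below, were not counted. The member counts under alternatives are therefore not read as results about the members. The causes of the changes between settings were not tested.

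With replicate number as a block, 0 members passed in any GNP comparison, where Dkk3 had passed in NdpKO against WT, Ptch+/- against WT, the interaction and the F test. A GNP array's closest match by number was its own in 4 of 16 cases.

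When each array was left out in turn, the members passing ranged from 0 to 1 in NdpKO;Ptch+/- against Ptch+/- (1, Fzd3, without NdpKO;Ptch+/- replicate 1), in NdpKO against WT, in Ptch+/- against WT and in the F test, from 0 to 2 in the interaction, and from 10 to 13 in MB against GNPs. The tumours are 1 array each, so a fit without a tumour assumes that the lone tumour varies like the GNP arrays. Members at background can be compared only if they rise above it.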
